A study of Mus musculus with 6 samples.

Results

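The endocytic receptor genes Cubn, Amn and Lrp2 and the adaptor gene Dab2 were examined in whole day 5 mouse blastocysts cultured with a mimic of the microRNA miR-30d or with a scrambled control. They were chosen by name, as every array feature that the platform annotation assigns to one of the 4 genes (Entrez identifiers 65969, 93835, 14725 and 13132, with older names matched by identifier). This gave 5 features of the 33026 that carry a gene symbol, 2 of them for Cubn and 1 each for Amn, Lrp2 and Dab2, and 4 of 22485 genes. The tested arrays were 3 samples given 400 nM of the mir-30d mimic for 72 hours, and they were set against 3 samples given 400 nM of a scrambled oligonucleotide labelled with Alexa 488 for the same time. All embryos were of the B6C3F1 strain, flushed from the oviduct on day 2 of pregnancy from females 6 to 8 weeks old that had been primed with gonadotropins, and 30 embryos were used per condition. From each sample 50 ng of total RNA was labelled with Cy3 and hybridised. The dye is named for the control oligonucleotide alone and no untreated embryos were arrayed, so a difference due to the dye or to either oligonucleotide as such cannot be told apart from one due to miR-30d.

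Cubilin is a large extracellular protein with no membrane anchor of its own, and amnionless carries it to the apical membrane and holds it there. Megalin, encoded by Lrp2, is a giant receptor of the low density lipoprotein (LDL) receptor family that works beside cubilin in the kidney tubule and in the visceral endoderm of the mouse embryo, where the receptors take up vitamin carriers, lipoproteins and other proteins from maternal fluid. The adaptor Dab2 binds the cytoplasmic tails of megalin and amnionless and links them to clathrin and the AP-2 complex, which carry the loaded receptors into the cell. In the blastocyst these genes are known from the trophectoderm and from the primitive endoderm, the layer that gives rise to the visceral endoderm, and Dab2 is needed for that endoderm to form properly.

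The brighter of 2 Cubn features read higher in the mimic-treated blastocysts and Dab2 read lower, each with no overlap between the groups, while the dimmer Cubn feature, Amn and Lrp2 overlapped. On its brighter feature Cubn was 1.43-fold of scramble and Dab2 was 0.723-fold. None of the 5 features passed the adjusted threshold, nor did any other feature on the array. The values below are log2 signals as deposited, and a difference is always mimic minus scramble. They come from RNA of whole embryos, in which fewer cells of a type and less RNA per cell cannot be told apart.

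The start regions of the 2 genes with a feature that separated the groups are shown first, from RefSeq on build GRCm38.p6, each running 5′ to 3′ on the gene's own strand from 250 bases before the annotated start to 50 after it. The capitals mark GATAA, a form of the letters bound by GATA factors, searched on both strands (TTATC on the other). Other forms were not searched for. GATA factors are known to drive Dab2 in mouse endoderm cells, and this is given as background.
Cubn, chr2:13491827-13492126, minus strand: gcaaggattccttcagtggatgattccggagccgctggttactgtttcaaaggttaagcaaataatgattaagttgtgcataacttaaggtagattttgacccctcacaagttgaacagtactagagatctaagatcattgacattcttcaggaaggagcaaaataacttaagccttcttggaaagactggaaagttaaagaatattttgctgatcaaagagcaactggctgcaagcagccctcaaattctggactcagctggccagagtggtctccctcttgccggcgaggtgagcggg
Dab2, upstream start, chr15:6299539-6299838, plus strand: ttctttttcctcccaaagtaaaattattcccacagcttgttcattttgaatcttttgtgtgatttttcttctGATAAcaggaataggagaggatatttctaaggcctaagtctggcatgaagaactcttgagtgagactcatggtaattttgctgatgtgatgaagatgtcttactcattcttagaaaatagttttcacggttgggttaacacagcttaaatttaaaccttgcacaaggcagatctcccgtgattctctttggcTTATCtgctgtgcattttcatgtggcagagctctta
Dab2, downstream start, chr15:6386498-6386797, plus strand: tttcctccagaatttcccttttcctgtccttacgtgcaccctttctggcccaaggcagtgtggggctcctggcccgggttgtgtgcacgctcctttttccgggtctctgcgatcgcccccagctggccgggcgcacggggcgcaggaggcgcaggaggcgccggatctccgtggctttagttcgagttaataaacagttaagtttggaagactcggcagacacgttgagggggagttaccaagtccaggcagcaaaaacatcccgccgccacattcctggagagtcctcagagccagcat
The upstream Dab2 window held 2 matches, and the downstream Dab2 window, the Cubn window and the windows of Lrp2 and Amn held 0. Of all 32851 windows of the same length in the table, 8347 (25.4%) held at least 1 match, so the motif is common, and a match describes letters and not a binding site. Which Dab2 start the blastocyst uses was not measured. Of the GATA genes of the endoderm, which are named for this motif and after their values were seen, Gata4 averaged 10.27 ± 0.35 with the mimic and 9.92 ± 0.07 with scramble, and Gata6 averaged 11.09 ± 0.05 with the mimic and 11.25 ± 0.15 with scramble (SD, n = 3 each). Of the GATA genes of the trophectoderm, named in the same way, Gata2 averaged 11.19 ± 0.30 with the mimic and 11.54 ± 0.22 with scramble. Gata3 averaged 11.83 ± 0.17 with the mimic and 11.91 ± 0.03 with scramble (SD, n = 3 each). The groups overlapped for all of these genes.

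Cubn, the ligand-binding receptor, had log2 signals of 11.72, 11.77 and 11.49 on the 3 mimic arrays and of 10.85, 11.33 and 11.24 on the 3 scramble arrays for its brighter feature. Every mimic array lay above every scramble array, with scramble replicate 1 the lowest of the 6. The means were 11.66 ± 0.15 with the mimic and 11.14 ± 0.26 with scramble (SD, n = 3 each), and the log2 difference was 0.52 (SE 0.17, 95% interval 0.13 to 0.91). In limma the unadjusted p was 0.015 and the adjusted p over all 33026 features was 0.985. A two-sided exact permutation test gave p = 0.1, the smallest that 3 arrays against 3 allow. The second Cubn feature was much dimmer and read 7.60, 8.71 and 8.30 with the mimic against 7.41, 8.24 and 8.05 with scramble. Here the groups overlapped, and the replicate 1 array was the lowest of each group. Its log2 difference of 0.31 (SE 0.35, 95% interval -0.49 to 1.10) had the same sign as that of the brighter feature. The same-numbered mimic array was the higher one in 3 of 3 pairs for both Cubn features, by 0.87, 0.44 and 0.24 for the brighter and by 0.19, 0.47 and 0.26 for the dimmer.

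Amn, whose product carries cubilin to the membrane, had log2 signals of 9.96, 10.34 and 10.31 on the mimic arrays and of 9.50, 10.53 and 10.40 on the scramble arrays. The groups overlapped, and both replicate 1 arrays lay below the other 4. The means were 10.21 ± 0.21 with the mimic and 10.14 ± 0.56 with scramble (SD, n = 3 each), which differ by 0.06 on the log2 scale (SE 0.27, 95% interval -0.54 to 0.67). This interval is wide and holds differences as large as that of Cubn in either direction. Leaving out scramble replicate 1 turned the difference to -0.26, and leaving out both replicate 1 arrays turned it to -0.14, so its sign rested on these arrays.

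Lrp2, which encodes megalin, was the steadiest of the 5 features. It read 10.75, 10.85 and 10.75 with the mimic and 10.88, 10.86 and 10.68 with scramble, and all 6 arrays lay within 0.20 log2 units. The log2 difference was -0.02 (SE 0.15), and its 95% interval of -0.35 to 0.31 corresponds to a fold between 0.785 and 1.24.

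Dab2, the clathrin adaptor of these receptors, had log2 signals of 10.33, 10.49 and 10.57 on the mimic arrays and of 10.86, 11.10 and 10.83 on the scramble arrays. Every mimic array lay below every scramble array, and the gap between the groups was 0.27. The means were 10.46 ± 0.12 with the mimic and 10.93 ± 0.15 with scramble (SD, n = 3 each), and the log2 difference was -0.47 (SE 0.16, 95% interval -0.82 to -0.12). The unadjusted p was 0.0147 and the adjusted p 0.985 in limma, and the two-sided exact permutation test gave p = 0.1. Leaving out each array in turn gave differences from -0.52 to -0.38, and leaving out both replicate 1 arrays gave -0.44.

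**Figure D1:**
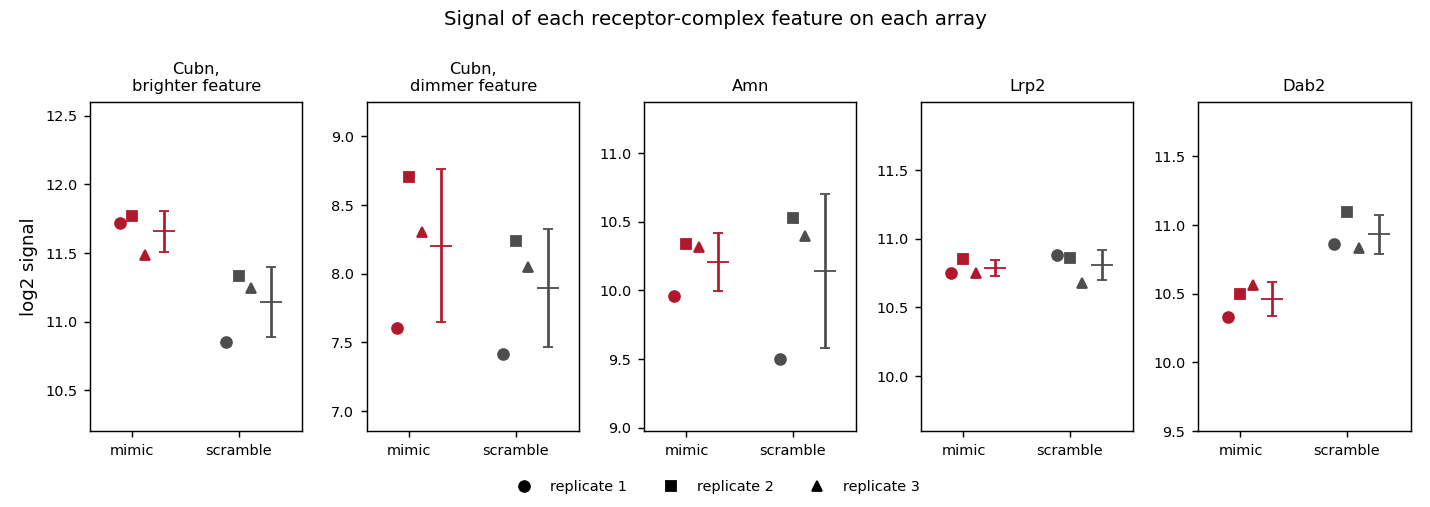
Log2 signal (vertical axis, each panel spanning the same range around its own mean) of the 5 features on the 3 mimic arrays (red) and the 3 scramble arrays (grey), with replicate numbers by symbol and bars for the mean ± SD. The mimic arrays of Cubn (brighter feature) lie between 11.49 and 11.77, above all scramble arrays, and those of Dab2 lie between 10.33 and 10.57, below all scramble arrays. The replicate 1 arrays are the low points of Amn.

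Groups that do not overlap were common on this array, at 9.62% of all named features, 5.44% with the mimic higher and 4.19% with the mimic lower. Of the 5 receptor-complex features, 2 were of this kind, 1 in each direction. An unadjusted p under 0.05 was reached by the same 2 features and by 3.4% of all features (1123 of 33026). No feature (0%) passed an adjusted p of 0.05 in limma. The 4 genes were proposed with results of these data known, so these counts describe them and do not single them out. All 5 features lay above the lowest 25% of named features by mean signal, and thus passed the filter used for the gene lists.

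**Figure D2:**
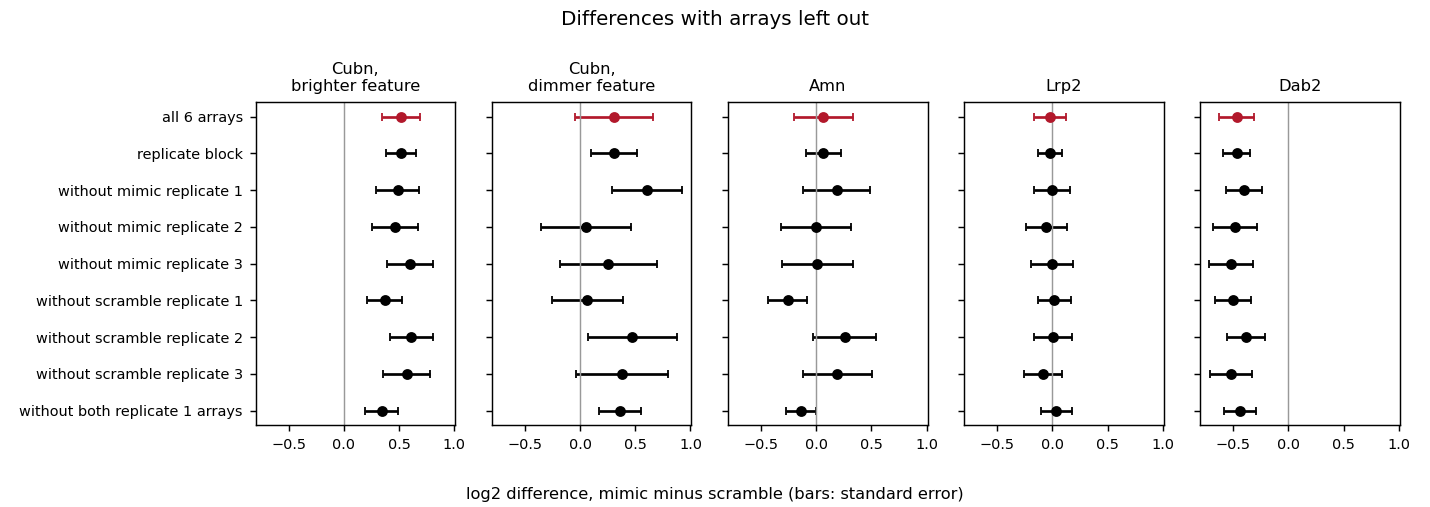
Log2 difference, mimic minus scramble (horizontal axis, bars for the standard error), of each feature with all 6 arrays, with the replicate number as a block and with arrays left out. The brighter Cubn feature stays between 0.34 and 0.61 and Dab2 between -0.52 and -0.38, while Amn and Lrp2 change sign.

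The difference between Cubn and Dab2 within each array, where a shift common to a whole array cancels, is given as a description with no test. This pair was looked at because the 2 genes lay on opposite sides, and for the brighter Cubn feature the separation below follows from that. The average of the Cubn features holds the same brighter feature, so its separation from Dab2 is no independent support either. The features differ in how brightly they bind, so only the change of this difference between groups carries meaning. With the Cubn features averaged, Cubn minus Dab2 was -0.67, -0.26 and -0.67 on the mimic arrays and -1.73, -1.31 and -1.19 on the scramble arrays. All mimic arrays lay above all scramble arrays, and the change was 0.88. With the brighter Cubn feature alone the values were 1.39, 1.28 and 0.92 with the mimic against -0.01, 0.23 and 0.41 with scramble, a change of 0.98. Without both replicate 1 arrays, a setting chosen for this comparison after seeing the data, the change with both features averaged was 0.79. Lrp2 served as a common point of comparison for the other 2. Relative to Lrp2, the brighter Cubn feature averaged 0.87 ± 0.12 with the mimic and 0.34 ± 0.32 with scramble, and Dab2 averaged -0.32 ± 0.12 with the mimic and 0.12 ± 0.13 with scramble (SD, n = 3 each). Neither of these differences overlapped between the groups. Lrp2 itself varied by only 0.20 over the 6 arrays, so this largely repeats the separation for which Cubn and Dab2 were picked and adds no support.

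**Figure D3:**
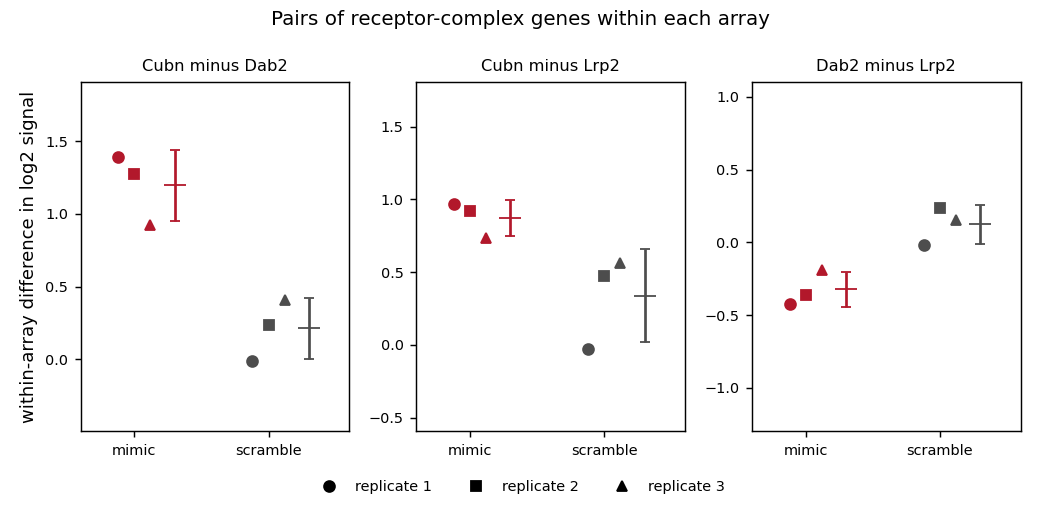
Within-array differences in log2 signal between 2 genes (vertical axis, brightest feature of each gene) on the mimic arrays (red) and scramble arrays (grey), with bars for the mean ± SD. Cubn minus Dab2 lies between 0.92 and 1.39 on the mimic arrays and between -0.01 and 0.41 on the scramble arrays. Both genes also separate against Lrp2, which varied little, so that this largely repeats their own separation.

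The other genes of the pathway were described from 5 lists, with the brightest feature standing for each gene and dim genes left out, among 17399 genes. Over all these genes 53.2% were higher with the mimic, the median log2 difference was 0.02, 9.7% did not overlap between the groups, 3.17% had an unadjusted p under 0.05 and none (0%) passed after adjustment. The lists held 90 tested genes, of which 51 read higher with the mimic and 39 read lower, and their median was 0.03. The groups did not overlap in 12 of them (13.3%), 3 (3.33%) had an unadjusted p under 0.05, and 0 passed after adjustment. These shares are near those of all genes.

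Among 14 tested genes of the LDL receptor family and its chaperones, 6 read higher and 8 read lower, around a median of -0.05. The one with the smallest p was Lrpap1, whose product is the receptor-associated protein that keeps megalin and its relatives from binding ligands on their way to the surface. It read 12.41, 12.89 and 12.73 with the mimic and 13.10, 13.34 and 13.10 with scramble. All mimic arrays lay below all scramble arrays, and the log2 difference was -0.51 (SE 0.16, unadjusted p = 0.0132 and adjusted p = 0.972 in limma), with its 2 features at -0.51 and -0.42. The receptor genes Lrp12 and Lrp8 had 0.33 (SE 0.22) and 0.55 (SE 0.40), both on dim features. The value for Lrp8 came from mimic replicate 1, which read 8.67 while the other 5 arrays lay between 6.97 and 7.49, and it was 0.07 without that array.

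The list of vitamin, iron and lipoprotein ligands and their co-receptors had 10 of its 17 genes tested, 5 of them higher and 5 lower, around a median of -0.0032. The dim ones left out were Apoh, Alb, Rbp4, Ttr, Hpx and Ambp. Tcn2 encodes transcobalamin, the plasma carrier of vitamin B12 and a ligand of megalin. It read 12.51, 12.66 and 12.40 with the mimic and 11.99, 12.35 and 12.06 with scramble, a log2 difference of 0.39 (SE 0.14, unadjusted p = 0.0245 and adjusted p = 0.972 in limma). Cd320, the cell-surface receptor for transcobalamin, read 11.61, 11.48 and 11.26 with the mimic and 11.23, 11.17 and 11.21 with scramble, a log2 difference of 0.25 (SE 0.13). The mimic arrays lay above the scramble arrays for both genes, but the second feature of Cd320 had -0.20. Clu, which encodes the megalin ligand clusterin, had 0.66 (SE 0.36) with overlapping groups. Cblif, the gene of intrinsic factor, which carries vitamin B12 to cubilin, was near the dim end at 7.01 ± 0.18 with the mimic and 7.46 ± 0.54 with scramble (SD, n = 3 each), and it is named after its value was seen.

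Of 28 clathrin adaptor and coat genes 17 read higher and 11 read lower, around a median of 0.05. The smallest p-values belonged to Hip1, a clathrin- and actin-binding protein gene (0.31, SE 0.17), the scaffold gene Itsn2 (0.37, SE 0.20) and Numb, which like Dab2 encodes an adaptor with a phosphotyrosine-binding domain (0.60, SE 0.33). The groups did not overlap for Hip1 alone of these 3. Without scramble replicate 1 Hip1 had 0.14 and Itsn2 had 0.17. Numb had 0.34 without mimic replicate 1 and 0.15 without both replicate 1 arrays.

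Of 26 genes of endosome sorting and acidification 12 read higher and 14 read lower, around a median of -0.02. Ocrl and Inpp5b encode related inositol phosphatases of the endosome, and loss of the first causes Lowe syndrome in people, in which the kidney fails to retain the proteins that megalin and cubilin bind. Ocrl read 10.92, 11.14 and 11.10 with the mimic and 11.47, 11.40 and 11.29 with scramble, a log2 difference of -0.33 (SE 0.12, unadjusted p = 0.0249 and adjusted p = 0.972 in limma), and its 2 features had -0.42 and -0.33. Inpp5b had 0.23 (SE 0.14) on its brighter feature, where the groups did not overlap, and -0.23 on the other, so the 2 features of that gene disagree. Without both replicate 1 arrays the brighter Inpp5b feature had 0.11. The proton pump gene Atp6v1a had 0.33 (SE 0.18), and 0.20 without mimic replicate 3 or 0.21 without scramble replicate 1. Of 12 genes of the apical scaffold and brush border 11 read higher and 1 read lower, around a median of 0.11, and 0 of them separated the groups. With both replicate 1 arrays left out this median was 0.05, and with single arrays left out it ran from 0.08 (scramble replicate 1) to 0.20 (scramble replicate 2). In that list Eps8, an actin-capping protein gene, had 0.49 (SE 0.25), moesin (Msn) had 0.27 (SE 0.16) and Espn had 0.83 (SE 0.62). Eps8 had 0.28 without scramble replicate 1, and Msn had 0.15 without mimic replicate 3. The Espn value came from mimic replicate 1 at 9.75, with the other 5 arrays between 7.09 and 7.44, and it was 0.0033 without that array.

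**Figure D4:**
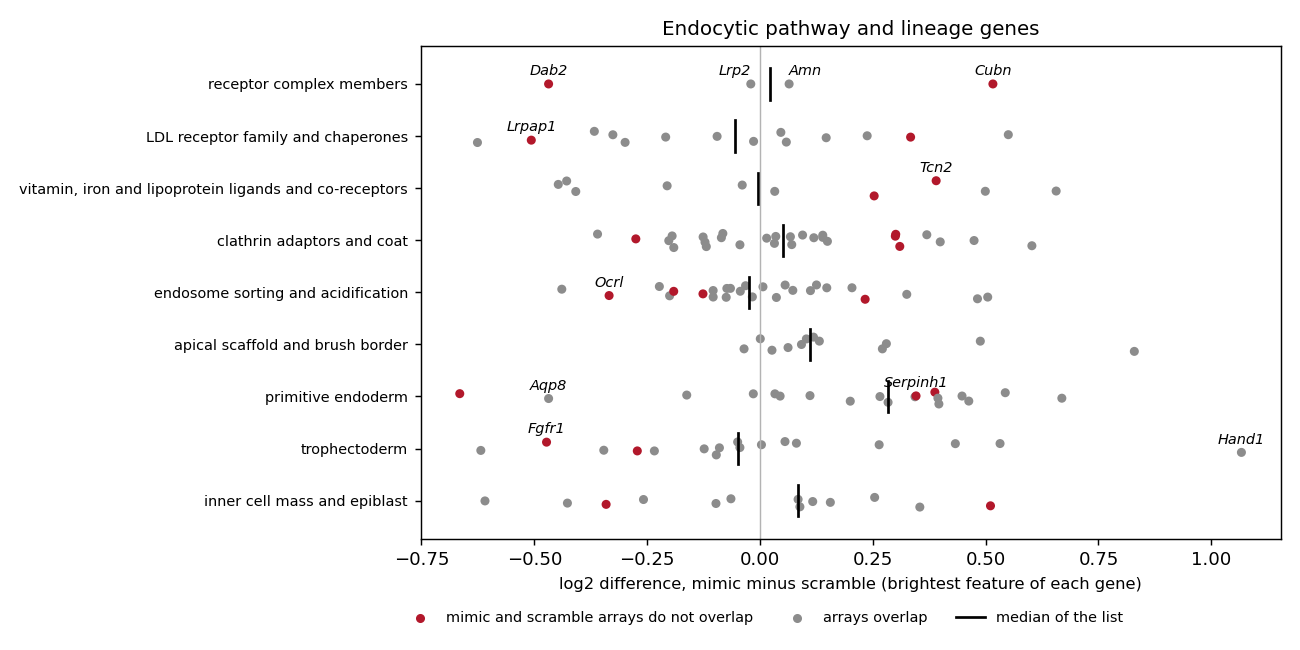
Log2 difference, mimic minus scramble (horizontal axis), of the genes of the receptor complex, the 5 pathway lists and 3 lineage lists (rows), with the black line at the median and red points where the mimic and scramble arrays do not overlap. Dab2 at -0.47 and Cubn at 0.52 lie on either side of Lrp2 and Amn, and the primitive endoderm row has a median of 0.28. That median was 0.14 without both replicate 1 arrays.

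Since the receptor genes are known from more than 1 of the lineages of the blastocyst, the lineage markers are given beside them. All 17 trophectoderm genes, 19 of 20 primitive endoderm genes and all 13 inner cell mass and epiblast genes of the lists were tested, that is, they lay above the lowest 25% of features. Of the primitive endoderm genes 15 read higher with the mimic and 4 read lower, while 53.2% of all genes read higher. Their median was 0.28, and leaving out single arrays moved it to between 0.12 and 0.42. Without both replicate 1 arrays it was 0.14. With each gene centred on its mean over all arrays, the list median was 0.05, 0.30 and -0.04 on the mimic arrays. On the scramble arrays it was -0.39, 0.18 and -0.12, so the groups overlapped. Serpinh1, a collagen chaperone gene, had 0.35 (SE 0.13) and the water channel gene Aqp8 had -0.47 (SE 0.17), and Aqp8's second feature had 0.0093. Of the trophectoderm genes 7 read higher and 10 read lower, around a median of -0.05. There Fgfr1, a fibroblast growth factor receptor gene, had -0.47 (SE 0.16) and Hand1, a transcription factor gene of giant cell formation, had 1.07 (SE 0.41), and 0.71 without mimic replicate 2. The inner cell mass and epiblast list had 7 genes higher and 6 lower, around a median of 0.08, and its pluripotency genes Nanog and Tfcp2l1 had -0.34 (SE 0.17) and -0.26 (SE 0.15). Without scramble replicate 1 Nanog had -0.18 and Tfcp2l1 had -0.13. An unadjusted p under 0.05 in limma was reached by 1 primitive endoderm gene higher and 2 lower, and by 2 trophectoderm genes higher and 1 lower. It was reached by 0 inner cell mass and epiblast genes, against 3.17% of all genes. The groups did not overlap for 2 primitive endoderm genes higher and 1 lower, and for 2 trophectoderm genes lower. They did not overlap for 1 inner cell mass and epiblast gene higher and 1 lower, against 9.7% of all genes. The lists are small, and 0 of their genes passed after adjustment. The part of the lineages in the results for Cubn and Dab2 was not tested.

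Cells that could have come along from the oviduct were also looked for. Of 9 oviduct epithelium genes 5 lay above the lowest 25% of features, of 11 cumulus genes 3, and of 10 macrophage genes 7. The median log2 level of the tested oviduct genes was 7.27 to 7.65 on the mimic arrays and 7.33 to 7.44 on the scramble arrays, that of the cumulus genes 7.34 to 7.74 on the mimic arrays and 7.18 to 8.12 on the scramble arrays, and that of the macrophage genes 7.26 to 7.41 on the mimic arrays and 6.9995 to 7.27 on the scramble arrays, against 7.16 at the limit of that lowest 25%. Many of these genes thus lay near the dim end in both groups. Above it lay Epcam, which early embryos express too, with 9.93 ± 0.61 with the mimic and 10.18 ± 0.41 with scramble (SD, n = 3 each), and 3 genes named after their values were seen. Foxl2, a gene of the cumulus list, averaged 12.59 with the mimic and 12.78 with scramble, far above the median level of that list. Csf1r, a macrophage receptor gene, averaged 8.64 with the mimic and 8.38 with scramble. Upk1a, of the oviduct list, averaged 8.05 with the mimic and 7.80 with scramble. The 2 genes of smallest p in each list were Foxj1 (-0.39, SE 0.21) and Epcam (-0.25, SE 0.32), Has2 (0.23, SE 0.21) and Inhba (-0.20, SE 0.30), and Mrc1 (0.30, SE 0.24) and Cd14 (0.15, SE 0.17). Their part in the results was not tested.

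The genes whose profiles over the 6 arrays were most like each receptor-complex gene were found by Pearson's r on log2 signal, as a description over arrays that share their treatment. Cubn was most like Psph (r = 0.996), a serine synthesis gene, followed by Slc16a6 (0.992) and Igsf8 (0.990), which had log2 differences of 0.43, 0.43 and 0.90. Dab2 was most like AA467197 (0.991), Xlr5b (0.984) and Gins1 (0.982), which had -0.49, -0.37 and -0.39. Amn was most like Dck (0.998), Rad54b (0.997) and Nbr1 (0.996), and Lrp2 was most like Zfp977 (0.992), Coq6 (0.992) and H4c17 (0.988). With 6 arrays and 17399 genes, values of r this high are found for each of the 4 genes, whether or not its groups separated.

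The medians of the 6 arrays lay between 7.367 and 7.376. The replicate 1 arrays stood apart from the rest, with a median correlation with the other arrays of 0.945 for mimic replicate 1 and 0.912 for scramble replicate 1, against 0.977 to 0.979 for the other 4. This touches Amn and the dimmer Cubn feature, where these arrays were the low ones, and Cubn, whose brighter feature had a difference of 0.34 (SE 0.15) without both of them. Dab2 and Lrp2 did not show replicate 1 as lowest in both groups. Precision is limited by the number of arrays, and over all features the standard error had a median of 0.23.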

How the data were processed

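The data are values of single-colour (Cy3) arrays for 3 mimic and 3 scramble samples, grouped and numbered by their titles. The authors' deposited table holds log2 signal for 45220 features. How the scanner images were background-corrected and normalized is not stated in the labels. The scale was read from the values, which run from 5.67 to 16. The near-equal medians mean that a change shared by most genes may not show, and dim features may understate differences. No detection flags were used. The titles call the samples biological replicates, but separate matings or days are not stated, and a p-value here reflects only the spread among these samples, which may be technical.

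Features were named from the platform annotation, 33026 with 1 symbol, 0 with several and 12194 with none, and symbols were updated by Entrez identifier through RefSeq (GRCm38.p6), which matched 32438. Repeated features were not averaged. Every named feature was fitted with limma 3.58.1 in R 4.3.3 (lmFit, eBayes with trend, two-sided, Benjamini-Hochberg adjustment, threshold 0.05). Gene lists used the brightest feature of each gene after the lowest 25% of features by mean were left out (17399 genes). Of 188 list symbols 179 were on the array. Exact permutation tests used scipy 1.17.1, and figures were drawn with matplotlib 3.10.9.

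The members and lists were chosen with earlier results of these data known. The text names all features of the 4 genes, the 3 genes of smallest p in each pathway list, the 2 in each marker list and the 3 most similar profiles per gene, with exceptions marked. Same-numbered arrays deviated together (correlation of deviations 0.328, 0.349 and 0.204 for replicates 1, 2 and 3). Mimic replicate 3 had 0.185 with scramble replicate 2, mimic replicate 2 had 0.124 with scramble replicate 3, and the other unmatched values were negative. Deviations from a group mean cancel within the group, so negative values follow in part by construction. The value for replicate 3, 0.204, is close to the unmatched 0.185, and the labels state no pairing. The main fit was therefore unpaired, and the replicate number entered as a block only in an alternative fit. The alternatives were the replicate block, the filter, the variance prior, quantile normalization, the choice of feature and leaving out arrays.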

Additional observations from a re-analysis of the deposited data

How the results depend on the processing

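None of the 5 features passed an adjusted p of 0.05 under any setting tried, and Cubn (both features) and Dab2 kept their direction under all of them. Leaving out single arrays gave log2 differences from 0.37 to 0.61 for the brighter Cubn feature, from 0.06 to 0.61 for the dimmer, from -0.52 to -0.38 for Dab2, from -0.26 to 0.26 for Amn and from -0.084 to 0.017 for Lrp2, so the direction of the last 2 is not settled, Amn having -0.0026 without mimic replicate 2 and Lrp2 0.0059 without scramble replicate 2. The unadjusted p in limma rose above 0.05 for the brighter Cubn feature without mimic replicate 2 (0.0549). It did so for Dab2 without scramble replicate 2 (0.0584). Cubn minus Dab2 went from 0.72 to 0.99. Without both replicate 1 arrays Amn had -0.14 and Lrp2 0.034, and Inhba (0.19) and Espn (-0.082) also changed sign. Inhba ranged from -0.45 to 0.13 when single arrays were left out. With the replicate block the differences were unchanged by construction. For the brighter Cubn feature the unadjusted p in limma was then 0.00693 and the adjusted p 0.67, and for Dab2 they were 0.00601 and 0.662. Of the list genes named by rank of p none passed an adjusted p of 0.05 with the block, the lowest being 0.373 for Lrpap1. The unadjusted p came under 0.05 with the block for Cd320 (0.0434), Clu (0.0348), Itsn2 (0.0295), Atp6v1a (0.00659), Msn (0.0294), Eps8 (0.0156) and Tfcp2l1 (0.0241), which had 0.0831 to 0.125 without it.

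Over the whole array, the block gave 1 feature and 1 gene past the adjusted threshold (0 without it), and 2169 features and 1260 genes with an unadjusted p under 0.05, against 1123 and 552 without it. These counts were 856 to 1785 features and 362 to 919 genes when single arrays were left out, the most without scramble replicate 2 and the fewest genes without mimic replicate 2, and 1843 features and 1000 genes without both replicate 1 arrays. The cause was not tested.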
